A study of Mus musculus with 21 samples.

Results

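The comparison described here is the genotype by time interaction between days 3 and 6 of embryoid body differentiation, that is, the day 3 to day 6 change in Cxxc5 knockout cells minus the same change in wild type cells. It was taken on log2(FPKM + 1), where FPKM stands for fragments per kilobase per 1 M mapped, a level corrected for transcript length and library size. A positive value means that a gene rose more, or fell less, in knockout. Of the 24458 genes in the deposited embryoid body table, 12440 had a mean FPKM of at least 1 over the libraries used and were tested. Of 21 samples in the series, 12 are embryoid body libraries, and 8 of these enter the comparison, 2 for each genotype and day.

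All lines were mouse ESCs (embryonic stem cells) of V6.5 type, a mixed 129/C57BL/6 strain, at passages 15-18. They were grown on gelatin in serum with LIF, and made into embryoid bodies in hanging drops. The groups were wild type at day 3, wild type at day 6, Rinf (Cxxc5) knockout at day 3 and Rinf knockout at day 6, with no added treatment in the labels. Each genotype came from 2 independent ESC lines, so differences between lines are part of the spread; the labels do not state which replicate number belongs to which line. In what follows a library pair means the day 3 and day 6 libraries of a genotype that carry the same replicate number.

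Embryoid bodies are aggregates in which pluripotent cells leave self-renewal and form primitive streak, mesoderm, endoderm and neural cells in a loosely embryo-like order. Wnt, Nodal and BMP ligands drive the streak and mesoderm branches, while neural differentiation proceeds where those signals are low. Cxxc5 encodes a CXXC zinc finger protein, a class that binds unmethylated CpG in DNA, and the study addresses how its loss alters differentiation.

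Cxxc5 (chromosome 18, 35829379 to 35861693 in mm10) checked the labels. Its FPKM at day 3 was 30.9 and 36.1 in wild type and 5.05 and 7.08 in knockout, and at day 6 it was 39.8 and 52.3 in wild type and 9.38 and 11.9 in knockout. Every knockout library lay below every wild type library on both days. The interaction was 0.29 (SE 0.28, limma adjusted p = 0.559). No source used here states which exons were deleted, so the remaining RNA cannot be assigned to intact transcript.

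Marker genes fitted the labelled stages in kind but not equally in the 4 day 6 libraries. The summed FPKM of the mesoderm markers Hand1, Pdgfra and Kdr was 1.38 to 2.74 in the day 3 libraries. At day 6 the same sum was 8.90 and 120 in wild type replicates 1 and 2 and 201 and 314 in knockout replicates 1 and 2. The pluripotency sum of Pou5f1, Nanog and Zfp42 was 465 to 539 at day 3, and 337 and 186 in wild type and 195 and 74.3 in knockout at day 6. Wild type replicate 1 thus stood nearest to day 3, and its log2 values had a mean correlation across genes of 0.960 with the wild type day 3 libraries, against 0.921 for wild type replicate 2. Between the replicates of a group 189 (wild type) and 152 (knockout) genes differed by over 1.5-fold at day 3, and 1104 and 630 at day 6. Depth, as estimated from the table, ran from 15.2 to 32.6 M reads. The Y-linked genes Eif2s3y and Uty were lower in the knockout libraries on both days, with interactions of -0.59 (adjusted p = 0.470) and -0.79 (adjusted p = 0.239) that did not pass the threshold. Their part in the results was not tested.

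From day 3 to day 6, limma called 1755 genes higher (14.1% of those tested) and 1866 lower (15%) in wild type, and 3555 higher (28.6%) and 3519 lower (28.3%) in knockout, at an adjusted p under 0.05. The changes of the genotypes went the same way for 80.5% of genes and had a Pearson r of 0.72 across genes, which are not independent. Among the 2984 genes called in both genotypes with the same sign, the knockout change was the larger in 2257, with a median ratio of 1.30. The number of genes that changed by over 2-fold was 403 and 1202 in wild type library pairs 1 and 2, and 1333 and 2007 in knockout library pairs 1 and 2. The count in wild type pair 2 was closer to knockout pair 1 than to the other wild type pair.

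The difference between the genotypes' changes was called for 220 genes, 1.77% of those tested. Of these, 34 (0.273%) had a higher change in knockout and 186 (1.5%) a lower one. By at least 2-fold, 16 were higher and 68 lower. At an unadjusted p under 0.05 the counts were 1294 higher and 1489 lower, and the median interaction over all genes was 0.007 with a median SE of 0.14. Both knockout library pairs lay above both wild type pairs for all 34 genes called higher, and below them for all 186 called lower. Such separation is common in these data, at 28.6% of all genes upward and 26.8% downward, and with 2 pairs against 2 an exact permutation test cannot give a p under 0.333. The limma fit does not pair libraries by number. With a replicate block, which does, 16 genes were called, 15 of them among the 220.

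**Figure D1:**
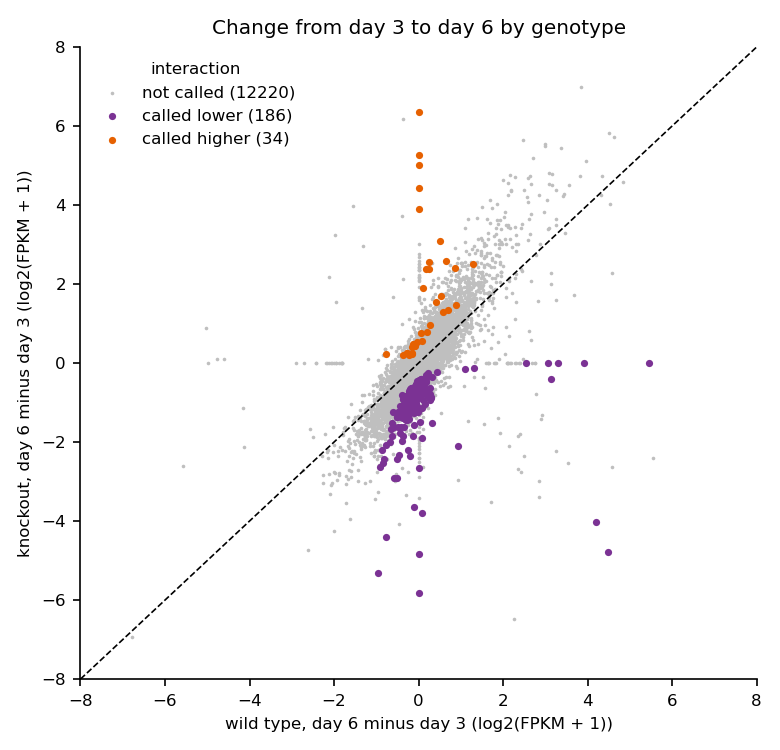
Change from day 3 to day 6 on the log2(FPKM + 1) scale in wild type (horizontal) and knockout (vertical), 1 point per gene, with a dashed line of equal change. The 34 genes called higher (orange) lie above the line and the 186 called lower (purple) below it.

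Most called genes changed in knockout and were not called in wild type. Of the 186 genes called lower, 102 fell in knockout and were not called in wild type, and 68 fell in both genotypes. A further 8 rose in wild type and fell in knockout, and 8 rose in wild type and were not called in knockout. Of the 34 called higher, 16 rose in knockout and were not called in wild type, and 10 rose in both. A further 7 fell in wild type and rose in knockout, and 1 fell in wild type and was not called in knockout. Over all 12440 tested genes, 4063 were called in knockout and not in wild type, and 610 the other way round. In the same fit limma called 18 genes between the genotypes at day 3 and 3484 at day 6. The median SE was 0.10 for the difference on either day and 0.14 for the interaction, which draws on all 4 group means.

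The promoters of 4 called genes are shown because the CXXC domain binds CpG and because these genes stand for the main groups described next: a pair of zinc finger genes that fell in knockout, and a connexin gene and a placental gene that rose there. Each is the 250 bases before the start that the RefSeq promoter window (GRCm38.p6) uses, 5′ to 3′ on the gene's strand, with CpG in capitals. For Zfp758 that start lies beyond the gene start given below. Its window therefore overlaps the first bases of Zfp758 and the neighbouring gene Zfp944. Zfp758 lies at chr17:22361213-22361462 on the plus strand, Zfp942 at chr17:21962465-21962714, Gjb2 at chr14:57104703-57104952 and Tpbpa at chr13:60941937-60942186 on the minus strand.
Zfp758: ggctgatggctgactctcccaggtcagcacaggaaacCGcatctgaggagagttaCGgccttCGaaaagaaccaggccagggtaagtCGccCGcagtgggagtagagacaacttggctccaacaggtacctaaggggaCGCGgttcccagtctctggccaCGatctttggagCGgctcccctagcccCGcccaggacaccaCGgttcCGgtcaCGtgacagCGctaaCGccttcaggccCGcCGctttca
Zfp942: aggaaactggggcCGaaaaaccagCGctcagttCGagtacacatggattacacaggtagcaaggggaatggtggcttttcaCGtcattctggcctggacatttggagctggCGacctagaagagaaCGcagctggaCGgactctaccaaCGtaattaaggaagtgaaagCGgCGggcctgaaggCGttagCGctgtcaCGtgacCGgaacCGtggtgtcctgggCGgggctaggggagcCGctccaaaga
Gjb2: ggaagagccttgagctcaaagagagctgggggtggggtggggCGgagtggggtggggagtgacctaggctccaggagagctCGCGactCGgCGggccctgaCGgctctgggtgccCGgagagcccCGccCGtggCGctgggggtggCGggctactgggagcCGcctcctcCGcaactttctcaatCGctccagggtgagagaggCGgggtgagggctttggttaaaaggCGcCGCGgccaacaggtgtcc
Tpbpa: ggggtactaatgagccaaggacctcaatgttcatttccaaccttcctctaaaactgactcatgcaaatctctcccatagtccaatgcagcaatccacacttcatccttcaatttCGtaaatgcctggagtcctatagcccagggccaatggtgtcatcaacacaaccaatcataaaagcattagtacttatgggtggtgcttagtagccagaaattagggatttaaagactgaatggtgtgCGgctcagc
These windows hold 17, 17, 18 and 2 CpG, read as the letters CG on the strand shown. At least 1 CpG occurs in 92.1% of the 32851 promoter windows of that length, with a median of 6. Among tested genes with a window the median count per gene was 16, against 19 for the genes called higher and 18 for those called lower, short RNA genes left out. The genes called lower were not alike in this: the median was 7.75 for Zfp genes and 21 for the rest. Windows with under 5 CpG made up 12% of those of genes called higher, against 7.04% over all tested genes. No test of CpG number was made. Binding of the protein to these windows was not analysed here.

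Genes known from the placenta were among those that rose more in knockout. Tpbpa encodes a secreted protein of the spongiotrophoblast, Prl7d1 a placental hormone of the prolactin family, and Ceacam9 a placental member of the carcinoembryonic antigen family. All 3 were listed at 0 FPKM in every day 3 library. They reached the mean FPKM of 1 needed for testing only through the knockout day 6 libraries, so a call could hardly go the other way and their values are a description. The same holds for Gjb2, Lmo1, Vax1, Psd2, Oaz1-ps and 4 short RNA genes, which makes 12 of the 34 genes called higher. Of all tested genes, 196 have a mean FPKM under 1 in the other 6 libraries. A gene called lower can pass the filter only through the wild type day 6 libraries, as Mir15a did, and such genes were not counted. At day 6 Tpbpa was 0.36 and 0.03 FPKM in wild type and 5.32 and 4.46 in knockout (interaction 2.31 on the log2(FPKM + 1) scale, SE 0.26, limma adjusted p = 0.0189). Prl7d1 was 0.26 and 0 in wild type and 4.06 and 4.40 in knockout (2.22, SE 0.24, adjusted p = 0.0170). Ceacam9 was 0.92 and 0.06 in wild type and 8.46 and 6.68 in knockout (2.58, SE 0.40, adjusted p = 0.0385). Both knockout libraries at day 6 stood above both wild type libraries for these 3 genes. They were picked out of the called genes and were not on the trophoblast list, whose 12 tested members include 0 called genes (1 higher and 0 lower at an unadjusted p under 0.05).

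Gjb2, the gene for the gap junction protein connexin 26, is expressed in epithelia and in the placenta. At day 3 its FPKM was 0.23 and 0.22 in wild type and 0.27 and 0.26 in knockout. At day 6 it reached 0.69 and 1.19 in wild type and 5.97 and 7.24 in knockout (interaction 1.92, SE 0.24, adjusted p = 0.0225). Gjb2 rose in both genotypes. It passed the filter only through its knockout day 6 values, so their height over the wild type libraries is a description.

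Other genes called higher have no list behind them here, and the neuroectoderm list had a median of -0.83 with 10 of 14 members below 0. Lmo1, which encodes a LIM-only transcriptional cofactor, went from 0.64 and 0.41 FPKM to 1.59 and 1.89 in wild type, and from 0.27 and 0.34 to 6.69 and 5.17 in knockout (interaction 1.55, SE 0.22, adjusted p = 0.0316). Vax1, a homeobox gene of the ventral forebrain and optic stalk, went from 0.11 and 0.10 to 1.73 and 1.65 in wild type and from 0.14 and 0.07 to 5.32 and 5.21 in knockout (1.21, SE 0.16, adjusted p = 0.0278). Cdh4, for R-cadherin, went from 1.57 and 1.57 to 2.45 and 3.05 in wild type and from 1.20 and 0.91 to 6.11 and 5.18 in knockout (1.15, SE 0.19, adjusted p = 0.0460). All 3 rose in both genotypes and more in knockout, but Lmo1 and Vax1 passed the filter only through their knockout day 6 values. Cabp1, for a calcium-binding protein of neurons, was 3.76 and 3.75 at day 3 and then 3.82 and 5.58 at day 6 in wild type, and went from 2.62 and 3.40 to 24.2 and 15.9 in knockout (2.13, SE 0.32, adjusted p = 0.0365). Ptpn13, a large cytoplasmic tyrosine phosphatase gene, went from 22.2 and 21.0 to 26.7 and 31.6 in wild type and from 18.97 and 17.0 to 50.5 and 57.5 in knockout (1.12, SE 0.15, adjusted p = 0.0278).

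Psd2, for an exchange factor of the small GTPase ARF6, lies on chromosome 18 (35963872 to 36014715 in mm10) beyond Cxxc5, which ends at 35861693. Its FPKM was 0.13 and 0.24 in wild type and 0.52 and 0.63 in knockout at day 3, and 0.21 and 0.35 in wild type and 4.56 and 5.15 in knockout at day 6. The 2 genotypes did not overlap on either day, and the interaction was 1.79 (SE 0.20, adjusted p = 0.0189). Psd2 passed the filter only through its knockout day 6 values, so its interaction is a description. Pura, a single-stranded nucleic acid binding protein gene on the same chromosome, was 7.97 and 6.25 in wild type and 6.70 and 6.63 in knockout at day 3, and 5.12 and 4.81 against 9.23 and 9.24 at day 6. Its interaction of 0.85 did not pass (SE 0.15, adjusted p = 0.0560). Whether the altered allele bears on these neighbours was not tested.

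Smaller positive interactions, between 0.39 and 1.01, were called in genes of translation, nucleolus and basic transcription. The ribosomal protein gene Rps21 was 2362 and 2033 FPKM at day 3 and then 1398 and 1171 at day 6 in wild type, against 1663 and 1646 and then 1891 and 1991 in knockout (interaction 1.01, SE 0.15, adjusted p = 0.0349). Rpl27a was 1155 and 1085, then 873 and 860 in wild type, against 1014 and 992, then 1198 and 1131 in knockout (0.58, SE 0.08, adjusted p = 0.0274). Both have near-identical processed copies in the genome, so the reads assigned to each are uncertain. Rps16 (0.50) and Rpsa (0.41) were called as well. These ribosomal genes and the others of this paragraph were named because they were called, and no list of nucleolar or transcription genes was measured. Of 80 tested ribosomal protein genes, taken by symbol after seeing the data, the 4 genes Rps21, Rpl27a, Rps16 and Rpsa were called higher and 0 lower. Over all tested genes 0.273% were called higher and 1.5% lower. The median interaction was 0.13 for the 80 genes and 0.007 over all genes. None of the 4 is on the list of cytosolic ribosomal proteins: of its 36 tested members 0 were called by limma, 9 were higher and 2 lower at an unadjusted p under 0.05, and the list median was 0.12. Polr1d, a subunit of RNA polymerases I and III, went from 110 and 105 FPKM to 95.3 and 96.7 in wild type and from 94.1 and 94.7 to 123 and 127 in knockout (0.56, SE 0.06, adjusted p = 0.0193). Also called were Gtf2b, for a general factor of RNA polymerase II (0.58), Noc2l, for a nucleolar protein that inhibits histone acetylation (0.70), Ppib, for a prolyl isomerase of the endoplasmic reticulum (0.62), the transcriptional coregulator genes Gps2 (0.69) and Zmiz1 (0.60), and Hist1h1c, for a linker histone (0.46).

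The largest fall among longer transcripts was that of Snhg14 (chromosome 7, 59272737 to 60450177 in mm10), a long RNA of the imprinted Prader-Willi and Angelman region that hosts clusters of small nucleolar RNAs. Its FPKM was 61.4 and 78.9 in wild type and 53.2 and 48.1 in knockout at day 3, and 71.9 and 57.4 in wild type and 3.11 and 3.20 in knockout at day 6. Only the 2 knockout libraries at day 6 were low. The interaction was -3.52 (SE 0.21, limma adjusted p = 0.00176). Slc24a5, for a cation exchanger known from pigment cells, showed the same form, with 43.2 and 45.9 FPKM falling to 32.9 and 28.8 in wild type and 41.0 and 39.7 falling to 4.13 and 4.96 in knockout (-2.39, SE 0.14, adjusted p = 0.00173).

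Zinc finger genes were numerous among the genes that fell. Of 348 tested genes with a Zfp symbol, 24 were called lower (6.9%, against 1.5% of all genes) and 0 higher. At an unadjusted p under 0.05, 100 were lower and 24 higher, and the family median was -0.09. The family was looked at because it recurred among the called genes, so these counts describe it and are no test of it. The 24 genes called lower had a median transcript GC content of 38.6%. Of all genes in the lowest decile by GC content (30.5 to 42.7%), 10% were called lower. Of the 24, 12 lie on chromosome 17 between 21450374 and 23193284, where Zfp clusters are dense (45 Zfp genes tested on that chromosome), and 7 on chromosome 13 (34 tested). Zfp944 and Zfp758 are adjacent on chromosome 17, the first ending at 22361428 and the next starting at 22361430. The Zfp758 promoter window printed above overlaps both genes.

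Zfp758 was 7.50 and 7.49 FPKM in wild type and 8.52 and 8.41 in knockout at day 3, and 6.73 and 6.07 in wild type and 0.90 and 0.80 in knockout at day 6 (interaction -2.15, SE 0.11, adjusted p = 0.00129). Zfp942, of the same cluster, went from 14.4 and 13.4 to 12.9 and 12.5 in wild type and from 12.9 and 11.9 to 2.70 and 2.80 in knockout (-1.71, SE 0.10, adjusted p = 0.00173). Both were nearly steady in wild type and dropped in both knockout libraries, and the promoter windows printed above hold 17 CpG each. Other members of the chromosome 17 group were Zfp946 (-1.92), Zfp944 (-1.59), Zfp820 (-1.45), Zfp40 (-0.96) and Zfp51 (-0.88). On chromosome 13 they included Zfp934 (-1.85), Zfp808 (-1.62) and Zfp935 (-0.99), and elsewhere Zfp932 (-1.04) and Zfp60 (-0.65). For the 20 of these 24 genes with a promoter window the median CpG count was 7.75, against 16 for all tested genes, so the windows of Zfp758 and Zfp942 are above the median of their family's called genes. Zinc finger genes of a cluster are close paralogues, so reads shared among them make single values uncertain.

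**Figure D2:**
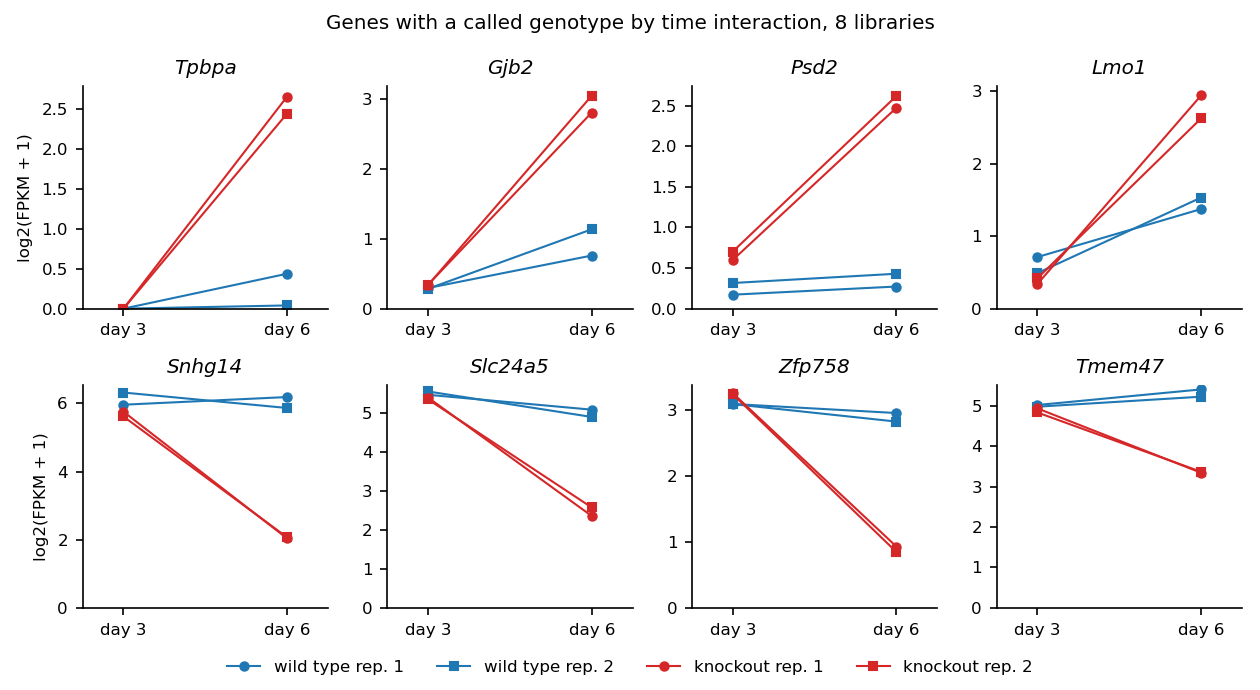
Log2(FPKM + 1) at days 3 and 6 in each of the 8 libraries for 4 genes called higher (upper row) and 4 called lower (lower row) in the interaction; lines join libraries of the same replicate number. Wild type (blue) and knockout (red) start close together at day 3 and are apart at day 6, as for Snhg14 with 71.9 and 57.4 FPKM in wild type and 3.11 and 3.20 in knockout.

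Several genes of RNA-binding proteins were among those called lower. They were picked from the called genes, and no list of that class was measured. Hnrnpa3, which encodes an RNA-binding protein, went from 129 and 139 to 113 and 114 FPKM in wild type and from 113 and 110 to 41.1 and 40.6 in knockout (interaction -1.19, SE 0.08, adjusted p = 0.00234). Hnrnpa1, of the same family and with processed copies in the genome, was 141 and 137 FPKM at day 3 and then 150 and 186 at day 6 in wild type, and 119 and 133 and then 65.9 and 64.1 in knockout (-1.21, SE 0.15, adjusted p = 0.0235). Cpsf6, of the cleavage and polyadenylation machinery (-0.55), Xpo1, for the nuclear export receptor exportin 1 (-0.91), Fmr1, for the RNA-binding protein of fragile X syndrome (-0.57), and the long noncoding RNA Tug1 (-0.68) were called as well. The Hnrnpa3 values were nearly the same in the 2 libraries of every group.

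Some genes known from cell division were also picked from those called lower. Depdc1a, a gene expressed at mitosis, was 18.0 and 17.5 FPKM at day 3 and then 17.4 and 19.3 at day 6 in wild type, and fell from 18.0 and 18.2 to 6.00 and 5.54 in knockout (interaction -1.54, SE 0.10, adjusted p = 0.00234). Esco2, for a cohesin acetyltransferase, fell from 44.0 and 44.1 to 33.5 and 28.7 in wild type and from 43.1 and 43.7 to 13.3 and 13.6 in knockout (-1.13, SE 0.11, adjusted p = 0.0125). Cenpk, for a kinetochore protein (-1.05), Cks2, for a subunit of cyclin-dependent kinases (-0.51), and Rb1, the retinoblastoma gene, which restrains entry into S phase (-0.66), were also called. Ncapg, for a condensin subunit, was 41.2 and 43.1 FPKM at day 3 and then 41.2 and 42.5 at day 6 in wild type, and went from 40.1 and 39.2 to 27.3 and 24.4 in knockout (-0.59, SE 0.09, adjusted p = 0.0411). With GC content and length trends removed, Ncapg was at 0.05 (adjusted p = 0.794), so that its direction was not kept. Of the 19 tested genes on the proliferation list 0 were called, with 1 higher and 2 lower at an unadjusted p under 0.05 and a median of -0.07. Top2a, the topoisomerase gene of dividing cells on that list, had an interaction of -0.26 (adjusted p = 0.230).

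Among single genes, Vbp1, for a subunit of the chaperone prefoldin, went from 99.4 and 104 to 82.3 and 74.9 FPKM in wild type and from 92.3 and 86.9 to 26.2 and 22.6 in knockout (interaction -1.47, SE 0.12, adjusted p = 0.00697). Arxes2 on the X chromosome was 10.4 and 8.73, then 10.9 and 9.28 in wild type and fell from 8.70 and 8.65 to 1.48 and 1.69 in knockout (-1.98, SE 0.16, adjusted p = 0.00590). Epha7, for an ephrin receptor of the developing nervous system, rose in wild type from 4.39 and 4.41 to 11.5 and 9.72 and was 4.24 and 4.33 at day 3 and then 4.39 and 3.15 at day 6 in knockout (-1.26, SE 0.20, adjusted p = 0.0386). Foxj1, the regulator of motile cilia, likewise rose in wild type and was not called in knockout, from 0.32 and 0.50 to 2.51 and 2.55, against 0.86 and 1.04 and then 0.69 and 0.85 in knockout (-1.46, SE 0.19, adjusted p = 0.0271). Trp53inp1, an autophagy and stress gene under p53 control, fell from 60.5 and 63.6 to 42.2 and 37.9 in wild type and from 59.4 and 60.8 to 18.8 and 21.98 in knockout (-0.90, SE 0.13, adjusted p = 0.0293). It was the 1 called gene of the 13 tested p53 targets (0 higher and 3 lower at an unadjusted p under 0.05). Eda2r, a further gene known to respond to p53, was not on that list and was also called lower (-0.84).

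Genes with called changes of opposite sign numbered 27 in all. The interaction was called lower for 8 of them and higher for 7. It was not called for 5 that rose in wild type and 7 that fell there. Among the 27 are the short RNA genes Snord88c and Snord8. Tmem47, which encodes a transmembrane protein of cell junctions, rose in wild type from 31.4 and 30.4 to 41.3 and 36.3 FPKM and fell in knockout from 29.5 and 27.5 to 9.13 and 9.30 (interaction -1.84, SE 0.11, adjusted p = 0.00173). The nuclear receptor coactivator gene Pnrc2 did so on a smaller scale, from 49.0 and 49.4 to 57.9 and 54.4 in wild type and from 44.6 and 45.0 to 31.2 and 33.0 in knockout (-0.66, SE 0.08, adjusted p = 0.0208). In the other direction, Polr1d and Rpl27a fell in wild type and rose in knockout, as did Atad3a, for a mitochondrial membrane ATPase (0.43, adjusted p = 0.0338). Nfkbia, for the inhibitor of NF-kB, had changes of opposite sign in both genotypes (-0.31 and 0.26), and its interaction of 0.57 did not pass (adjusted p = 0.0818).

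Very short genes need separate mention. Of 244 tested genes that span under 200 bases, 4 were called higher and 16 lower (6.56%, against 1.5% of all genes), and these include the largest interaction values of all. Snord88c, a small nucleolar RNA, was listed at 0 in both wild type libraries at day 3 and both knockout libraries at day 6, and at 20.5 and 34.6 FPKM in knockout at day 3 and 21.7 and 20.8 in wild type at day 6. Mir15a, a microRNA gene, was listed at 43.3 and 41.6 in wild type at day 6 and at 0 in the other 6 libraries. Scarna17, a small Cajal body RNA on chromosome 18, was listed at 116 and 56.8 in knockout at day 6 and at 0 elsewhere. Oaz1-ps, a pseudogene of the antizyme gene Oaz1 and not one of these short genes, was listed in the same way, at 42.1 and 32.9 FPKM in knockout at day 6 and at 0 elsewhere, and its reads may be shared with Oaz1. For transcripts as short as the reads an FPKM can rest on very few reads or on reads of a host gene, and 0 can be a failed estimate, so no fold is given. The called genes number 30 higher and 170 lower without these short genes.

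GC content moved with the direction of the interaction. The median GC content of transcripts was 50.9% over all tested genes, 54.5% in genes called higher and 40.9% in genes called lower, short RNA genes left out. In the decile of genes with the lowest GC content, 124 genes were called lower, 10% of that decile, while decile 8 in rising order had 0 called lower and 8 higher. The median change from day 3 to day 6 in the lowest decile was -0.12 and -0.12 in the wild type pairs and -0.38 and -0.40 in the knockout pairs. In the highest decile it was 0.10 and 0.14 in wild type and 0.20 and 0.29 in knockout. The slope thus had the same sign in all 4 library pairs and was steeper in both knockout pairs, with a Pearson r of GC content with change across genes of 0.14 and 0.13 in wild type and 0.28 and 0.26 in knockout.

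**Figure D3:**
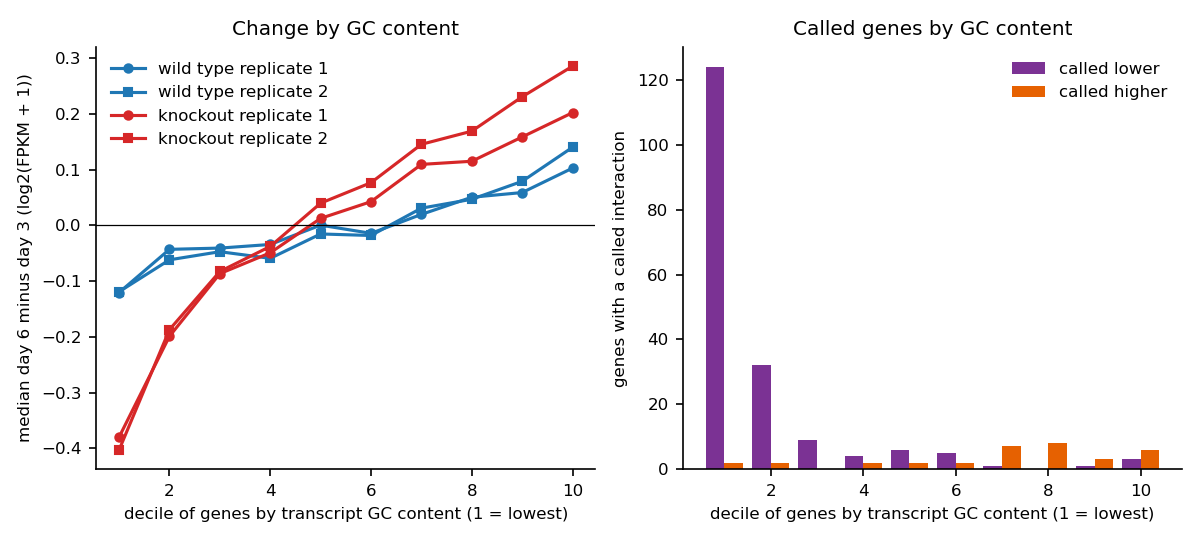
Left, median change from day 3 to day 6 on the log2(FPKM + 1) scale in deciles of genes by transcript GC content, for each library pair. Right, number of genes called higher or lower in the interaction per decile; the lowest decile holds 124 genes called lower and the knockout medians there are -0.38 and -0.40.

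With trends on GC content and transcript length removed from each library, an analysis chosen after seeing the data, 34 genes were called, 12 higher and 22 lower, and 33 of the 34 were among the 220. Tpbpa (2.51), Prl7d1 (2.66), Gjb2 (1.95) and Psd2 (1.65) kept their calls. These 4 passed the filter only through their knockout day 6 values, so the kept calls add no support. Snhg14 (-3.40), Slc24a5 (-2.31), Tmem47 (-1.71), Arxes2 (-1.86), Hnrnpa3 (-1.05), Vbp1 (-0.89), Gtf2b (0.69) and Polr1d (0.52) were also among those still called. Of the 24 zinc finger genes 3 were: Zfp758 (-1.44, adjusted p = 0.0130), Zfp942 (-1.16, adjusted p = 0.0307) and Zfp934 (-1.28, adjusted p = 0.0478). Depdc1a (-0.87, adjusted p = 0.0973), Trp53inp1 (-0.56, adjusted p = 0.144), Ceacam9 (2.56, adjusted p = 0.0926), Lmo1 (1.45, adjusted p = 0.0924), Vax1 (0.93, adjusted p = 0.110), Rps21 (0.94, adjusted p = 0.0733), Rpl27a (0.47, adjusted p = 0.0911), Hnrnpa1 (-1.06, adjusted p = 0.0751) and Epha7 (-1.15, adjusted p = 0.105) were not. Of the other genes named above, with adjusted p in brackets, Fmr1 went to -0.11 (0.441), Cenpk to -0.38 (0.247), Rb1 to -0.36 (0.165), Tug1 to -0.34 (0.193), Xpo1 to -0.49 (0.0973) and Cpsf6 to -0.34 (0.124). Among zinc finger genes, again with adjusted p in brackets, Zfp935 went to -0.39 (0.317), Zfp51 to -0.41 (0.169), Zfp932 to -0.56 (0.111), Zfp820 to -0.88 (0.0863) and Zfp40 to -0.62 (0.105). In all of these 11 genes the value moved by over 1.5-fold and the call was lost. What sets the GC trend apart in the knockout libraries was not tested.

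Single libraries also weighed on the calls. Without 1 of the 4 day 3 libraries 32 to 47 genes were called, and without 1 of the day 6 libraries 75 to 1095, where the group left with 1 library is assumed to vary like the others. Of the 220 genes, 22 were called whichever library was left out, and 10 of these were not short RNA genes. They include Depdc1a, Hnrnpa3, Slc24a5, Snhg14, Tmem47, Zfp758, Zfp942 and the phosphatase subunit gene Ppp1cb. With the replicate block Depdc1a and Hnrnpa3 were not called (limma adjusted p = 0.0512 for each). Gjb2, Psd2, Tpbpa, Prl7d1 and Ceacam9 each lost the call without any 1 of the 4 day 3 libraries, with adjusted p up to 0.130 for Gjb2, 0.106 for Psd2, 0.106 for Tpbpa, 0.0815 for Prl7d1 and 0.197 for Ceacam9. Gjb2, Psd2 and Ceacam9 lost it also without knockout replicate 2 at day 6, and Ceacam9 without knockout replicate 1.

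The genes of germ layers and signalling pathways showed large differences that were not called. Over 27 lists with 339 distinct tested genes, limma called 0 higher and 1 lower, Trp53inp1, while 39 were higher and 23 lower at an unadjusted p under 0.05. The wild type replicates at day 6 were far apart in these genes, so their SEs were large. In bulk samples fewer cells of a type and less RNA per cell cannot be told apart.

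Lateral and cardiac mesoderm genes had the highest list median, 1.88 over 13 tested members (0.007 over all genes), with 12 above 0, and 3 higher and 1 lower at an unadjusted p under 0.05. Their median change was 0.67 and 3.34 in the wild type pairs and 4.23 and 4.52 in the knockout pairs. Hand1, a transcription factor gene of lateral mesoderm and trophoblast, was 0.21 and 0.11 FPKM in wild type and 0.54 and 0.33 in knockout at day 3, and 2.67 and 74.6 in wild type and 137 and 236 in knockout at day 6. Its interaction was 3.13 with an SE of 1.78 (adjusted p = 0.336). Foxf1, a splanchnic mesoderm factor, had the same form, with 0.64 and 22.3 FPKM in wild type and 39.98 and 66.8 in knockout at day 6 (3.18, SE 1.56, adjusted p = 0.280). Tbx20 (2.46), Hand2 (2.63), Gata4 (1.88), Gata6 (1.62) and the receptor gene Pdgfra (2.19) also lay above 0 without a call. In Hand1, Foxf1, Tbx20 and Hand2 wild type replicate 1 was the lowest library at day 6 and wild type replicate 2 stood below both knockout libraries. Actc1, the cardiac actin gene, was the member below 0, at 3.80 and 4.66 FPKM in wild type and 2.10 and 0.77 in knockout at day 6 (-0.93, adjusted p = 0.209).

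BMP ligands and targets had a median of 1.32 over 15 members, 14 of them above 0 (3 higher and 0 lower at an unadjusted p under 0.05). The ligand gene Bmp4 was 1.80 and 2.04 FPKM in wild type and 4.602 and 5.33 in knockout at day 3, and 3.10 and 16.7 in wild type and 38.7 and 60.0 in knockout at day 6 (interaction 1.502, SE 0.89, adjusted p = 0.351). Bmp2 was 2.91 and 13.2 in wild type and 15.4 and 24.1 in knockout at day 6 (1.49, adjusted p = 0.309). For both ligands wild type replicate 2 at day 6 stood closer to the knockout libraries than to wild type replicate 1 on the log scale. Of the targets, the homeobox gene Msx1 had an interaction of 2.43 (SE 0.71, adjusted p = 0.137), the inhibitory Smad6 one of 1.41 (adjusted p = 0.319), and Id1 one of 0.90 (adjusted p = 0.369). Id3 was 53.6 and 90.1 FPKM in wild type and 115 and 157 in knockout at day 6 (0.65, adjusted p = 0.331).

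In blood and endothelium 13 of 14 members lay above 0 (median 1.01; 3 higher and 0 lower at an unadjusted p under 0.05). Cdh5, the cadherin gene of endothelial junctions, was 1.45 and 1.52 FPKM in wild type and 0.95 and 1.245 in knockout at day 3, and 0.95 and 2.92 in wild type and 8.16 and 11.4 in knockout at day 6. It came near the threshold, with an interaction of 2.19 (SE 0.46, adjusted p = 0.0781). Etv2, a regulator of the first endothelial and blood progenitors, was 5.18 and 4.602 and then 5.03 and 6.84 FPKM in wild type, against 2.87 and 2.95 and then 6.70 and 7.002 in knockout (0.78, SE 0.19, adjusted p = 0.0989). Kdr, the VEGF receptor gene of their precursors, had an interaction of 2.58 (SE 1.08, adjusted p = 0.228), with 4.41 and 33.0 FPKM in wild type and 43.5 and 51.6 in knockout at day 6. Of 22 Hox and Cdx genes only 6 reached the mean FPKM needed for testing, and a gene high in knockout at day 6 reaches it more easily. All 6 lay above 0 (median 0.93), which is a description. Among them was Cdx2 at 0.94 and 4.44 FPKM in wild type and 10.2 and 18.95 in knockout at day 6 (2.03, adjusted p = 0.173).

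Wnt ligands and targets had a median of 0.80, with 15 of 17 members above 0 (4 higher and 1 lower at an unadjusted p under 0.05). Lef1, a transcription factor of the pathway, came nearest to the threshold: it was 11.3 and 14.5 FPKM in wild type and 7.53 and 6.25 in knockout at day 3, and 21.8 and 30.5 in wild type and 40.3 and 38.5 in knockout at day 6 (1.40, SE 0.26, adjusted p = 0.0604). Knockout was thus below wild type at day 3 and above it at day 6. Wnt3, the ligand gene of the streak, was 3.20 and 11.1 in wild type and 17.7 and 14.5 in knockout at day 6 (0.87, adjusted p = 0.432), and the feedback inhibitor genes Axin2 (0.80) and Nkd1 (1.10) and the target Sp5 (0.85) were not called. The ligand gene Wnt7b went the other way, from 0.90 and 0.59 to 0.45 and 0.32 in wild type and from 3.89 and 6.28 to 0.98 and 0.87 in knockout (-1.30, SE 0.30, adjusted p = 0.0923).

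Of 15 primitive streak genes 11 rose and 1 fell in wild type, and 14 rose and 1 fell in knockout, against 14.1% and 28.6% of all genes called higher. Their interactions had a median of 0.58, 11 above 0 and 4 below. T, the brachyury gene of the streak, reached 31.5 and 73.0 FPKM in wild type and 97.95 and 50.7 in knockout at day 6, with overlapping groups (-0.26, adjusted p = 0.826). Eomes reached 31.6 and 77.01 against 114 and 78.3 (0.14, adjusted p = 0.904). Mesp1, which marks mesoderm leaving the streak, stood at 1.86 and 23.7 in wild type and 50.5 and 38.2 in knockout (2.49, adjusted p = 0.290). Cer1, for a secreted inhibitor of Nodal and BMP made by anterior endoderm, was the member furthest below 0: it rose from 0.27 and 0.27 FPKM to 13.2 and 17.4 in wild type and from 0.09 and 0.09 to 1.60 and 3.91 in knockout (-1.96, SE 0.42, adjusted p = 0.0794). The Nodal list as a whole had a median of -0.25 over 12 members (3 higher and 1 lower at an unadjusted p under 0.05). Nodal itself was 19.5 and 12.1 in wild type and 19.3 and 13.5 in knockout at day 6 (-0.29, adjusted p = 0.626).

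Neuroectoderm genes leaned the other way, with a median of -0.83 over 14 members, 10 below 0 and 4 above (1 higher and 4 lower at an unadjusted p under 0.05). Their median change was 0.58 and 0.29 in the wild type pairs and 0.29 and -0.76 in the knockout pairs. Wild type pair 2 and knockout pair 1 were thus alike, and only knockout pair 2 stood apart below them. The genes described next are from those below 0. Fabp7, of neural progenitors, was 8.82 and 8.77 FPKM in wild type and 3.92 and 5.98 in knockout at day 3, and 16.1 and 12.3 in wild type and 4.53 and 2.14 in knockout at day 6 (-1.11, SE 0.42, adjusted p = 0.197). Zic1, a neural plate factor, rose in both genotypes and reached 5.59 and 3.34 in wild type and 2.06 and 0.67 in knockout (-1.15, adjusted p = 0.212). Sox1, the early neural gene, was 17.3 and 5.95 in wild type and 5.22 and 0.70 in knockout at day 6 (-1.67, SE 0.98, adjusted p = 0.351). For these 3 picked genes both knockout libraries at day 6 lay below both wild type libraries, and 0 of the 3 interactions passed the threshold. The share of all genes with such an order at day 6 was not counted, so it is a description. Map2, a neuronal microtubule gene, had an interaction of -0.87 (adjusted p = 0.139). Sox11 rose in both genotypes, to 49.0 and 46.1 FPKM in wild type and 30.4 and 29.6 in knockout (-0.36, SE 0.09, adjusted p = 0.114).

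Of 13 general pluripotency genes 12 lay below 0 (median -0.57), of 15 naive pluripotency genes 11 (median -0.44) and of 12 primed epiblast genes 11 (median -0.54); 0 of each list were called by limma, with 0, 3 and 1 higher and 2, 2 and 0 lower at an unadjusted p under 0.05. Pou5f1, for the core factor OCT4, was 315 and 309 FPKM in wild type and 317 and 326 in knockout at day 3, and 235 and 118 in wild type and 123 and 46.1 in knockout at day 6 (-1.17, SE 0.69, adjusted p = 0.347). Wild type replicate 2 and knockout replicate 1 were alike at day 6. Nanog had 81.9 and 60.7 in wild type and 59.6 and 20.4 in knockout at day 6 (-1.40, adjusted p = 0.253) and Sox2 115.5 and 45.4 against 44.4 and 17.0 (-1.29, adjusted p = 0.347). Dppa3, a gene of naive and germ cells, differed already at day 3: it went from 28.3 and 29.0 to 19.2 and 9.13 in wild type and from 80.9 and 100.2 to 20.95 and 13.6 in knockout (-1.29, SE 0.48, adjusted p = 0.195). Klf4, of the naive state, lay above 0, going from 2.18 and 3.33 to 2.83 and 2.72 in wild type and from 1.19 and 1.52 to 3.33 and 5.24 in knockout (1.12, SE 0.31, adjusted p = 0.129).

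Enzymes of DNA methylation and its removal had a median of -0.07 over 10 members, 5 above and 5 below 0, with 1 higher and 0 lower at an unadjusted p under 0.05 and 0 called. Tet1, which oxidises 5-methylcytosine, fell in both genotypes, to 28.8 and 21.7 FPKM in wild type and 19.7 and 15.6 in knockout (interaction -0.46, SE 0.21, adjusted p = 0.263). Tet2 was between 5.92 and 7.61 FPKM in all 8 libraries (0.18, SE 0.11, adjusted p = 0.376). Tet3 rose in both, to 8.29 and 8.30 in wild type and 9.47 and 12.2 in knockout (0.40, SE 0.18, adjusted p = 0.241). The de novo methyltransferase gene Dnmt3b had an interaction of -0.49 (SE 0.39, adjusted p = 0.469) and Uhrf1, for the partner of the maintenance enzyme, one of 0.00 (SE 0.08, adjusted p = 0.997).

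**Figure D4:**
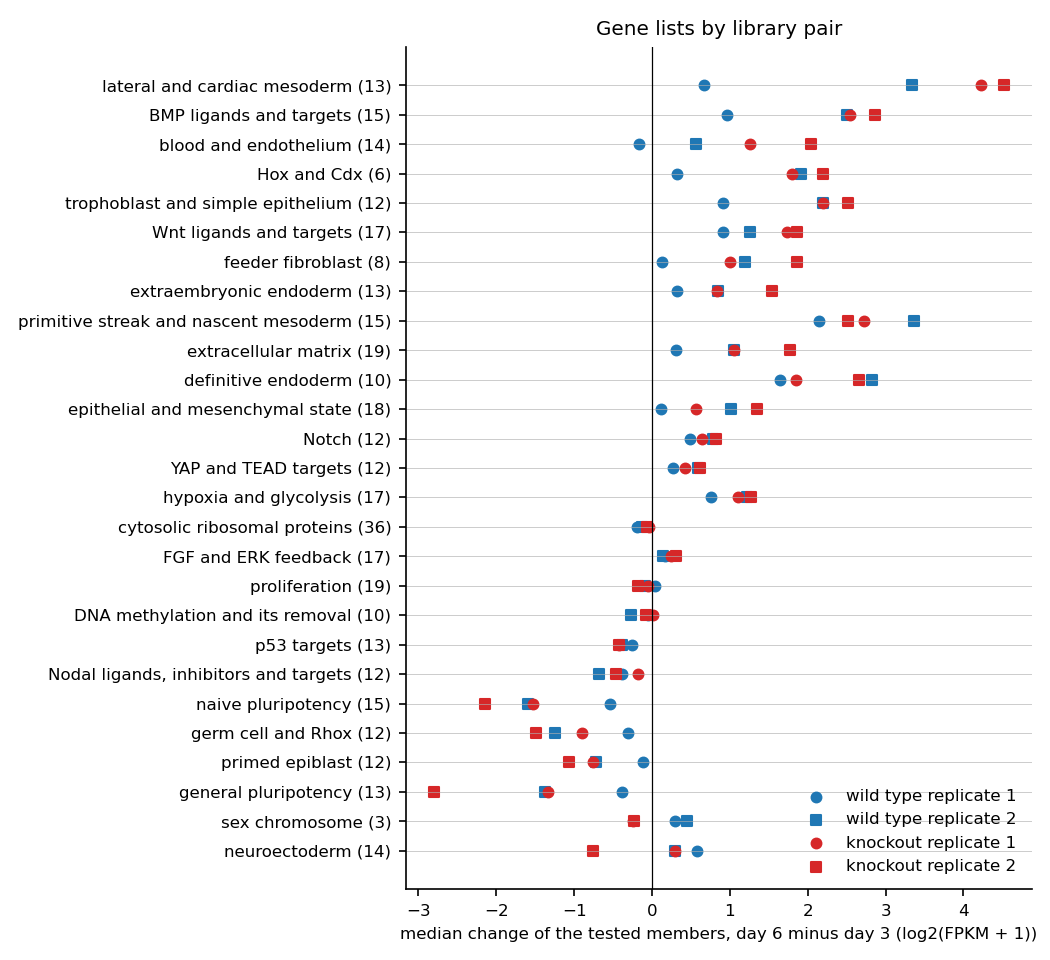
Median change from day 3 to day 6 of the tested members of each list (number in brackets) in each library pair, on the log2(FPKM + 1) scale, ordered by median interaction. For lateral and cardiac mesoderm the wild type pairs stand at 0.67 and 3.34 and the knockout pairs at 4.23 and 4.52.

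In further lists the second wild type pair lay close to the first knockout pair. For the trophoblast list the medians were 0.92 and 2.20 in the wild type pairs and 2.20 and 2.52 in the knockout pairs, and for extracellular matrix genes 0.31 and 1.05 against 1.05 and 1.77. Fn1, the fibronectin gene, was 98.8 and 322 FPKM in wild type and 515 and 544 in knockout at day 6 (interaction 1.64, SE 0.69, adjusted p = 0.229). The trophoblast and epithelial keratin gene Krt8 reached 71.9 and 186 in wild type and 263 and 421 in knockout (0.94, adjusted p = 0.402). Vim, for the mesenchymal filament protein vimentin, stood at 73.4 and 168 against 222 and 367 (1.71, SE 0.56, adjusted p = 0.162). In all 3 the order at day 6 was wild type replicate 1, wild type replicate 2, knockout replicate 1, knockout replicate 2.

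**Figure D5:**
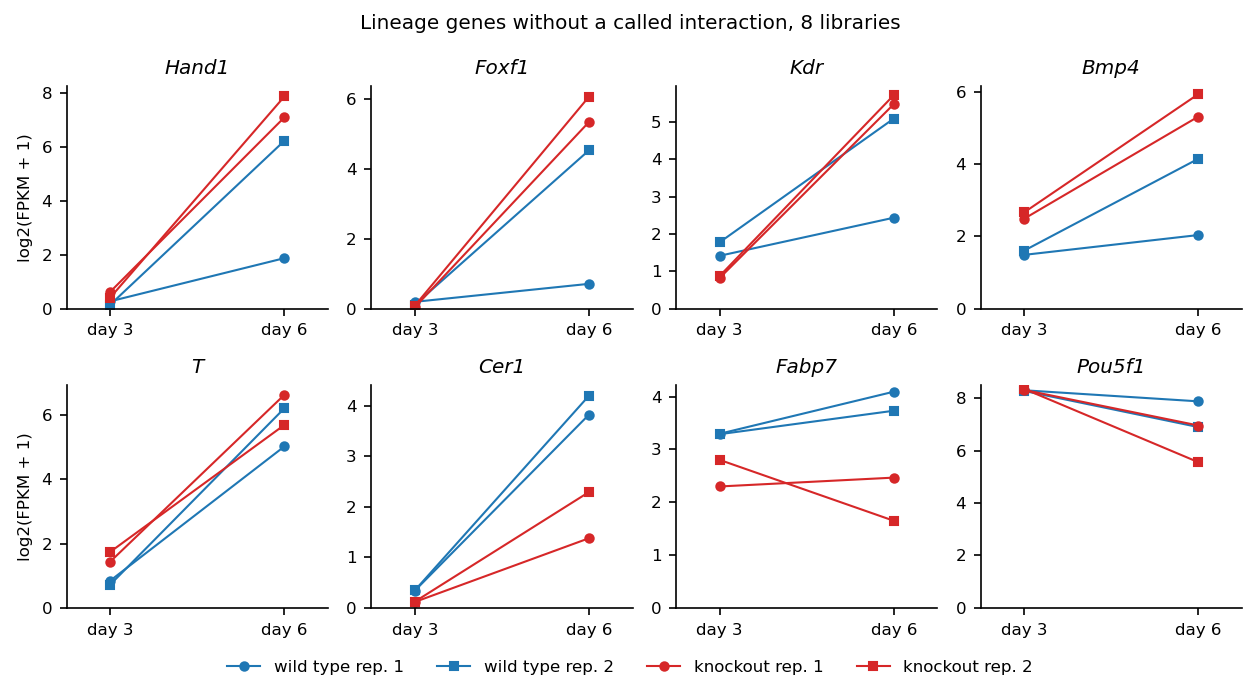
Log2(FPKM + 1) at days 3 and 6 in each library for 8 lineage genes whose interaction was not called; lines join libraries of the same replicate number. For Hand1, Foxf1, Kdr and Bmp4 wild type replicate 1 (blue circles) is the lowest library at day 6, and wild type replicate 2 lies nearer to the knockout libraries, as for Hand1 with 74.6 FPKM against 2.67.

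Which wild type library stands for day 6 sets the outcome for the lineage genes. Without wild type replicate 2 at day 6, 490 genes were called higher (3.94%) and 605 lower (4.86%), all 220 genes among them, and of the 339 list genes 63 were higher and 10 lower. Among those higher were 10 of 13 lateral and cardiac mesoderm genes, 11 of 15 BMP genes, 8 of 15 streak genes, 8 of 17 Wnt genes, 6 of 12 trophoblast genes, 5 of 14 blood and endothelium genes and 5 of 6 Hox and Cdx genes, and 0 of these lists had a member called lower. The genes called lower included 2 germ cell and Rhox genes, 2 proliferation genes and 2 genes of the epithelial and mesenchymal list, which also had 4 higher. The definitive endoderm, p53 and feeder lists had 1 lower each, as did the naive and Nodal lists beside 1 and 2 higher, and a gene can be on several lists. Hand1 then had an interaction of 5.32 (adjusted p = 0.00701) and Mesp1 one of 4.05 (adjusted p = 0.00300). Without wild type replicate 1 instead, 21 genes were called higher and 94 lower, 0 of them on a list, and Hand1 had 0.95, Mesp1 0.93 and Bmp4 0.45. Each such fit has 1 wild type library at day 6, which is assumed to vary like the other groups. For these 3 genes the sign was the same in both fits and the size depended on the library. For others the sign differed: without replicate 2 and without replicate 1, Krt19 had 1.247 and -0.31, Msx2 2.97 and -0.10, and Eomes 0.77 and -0.49. Of the 339 list genes, 76 had opposite signs in the 2 fits.

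Feeder fibroblast markers were measured because ESC lines are often kept on feeders. The summed FPKM of 12 markers was 8.93 to 12.2 at day 3, and 12.3 and 22.3 in wild type and 24.8 and 45.7 in knockout at day 6. Lum was at most 0.07 FPKM in every library, and Dcn was 1.43 and 0.37 in wild type and 0.33 and 0.12 in knockout at day 6, against 1.12 to 1.99 at day 3. Thy1 fell as well, while Col1a1, Fbn1, Twist2 and Pdgfrb were highest in knockout replicate 2 at day 6. Pdgfrb, for example, was then 0.92 and 5.06 in wild type and 5.45 and 11.5 in knockout. None of the 12 was at 0 in all libraries. The sum moved with the mesoderm and matrix genes, and its part in those results was not tested. Col1a1, Col1a2, Col3a1, Fbn1 and Postn are on the matrix list too, so the sum and that list are not independent.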

How the data were processed

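Gene expression was taken from the table of FPKM values that the authors deposited for 12 embryoid body libraries, of which the 8 of days 3 and 6 were used. Per the labels' protocols, total RNA with ERCC spike-ins was sequenced from 1 end. The tools were Trim Galore 0.4.1 for trimming and TopHat2 2.0.13 for mapping to mm10, while the submitters' processing notes list Cufflinks 2.2.1, Cuffdiff and HTSeq 0.6.1 without a role. No source used here gives the annotation or the use of strand. The 92 spike-in rows were all at 0. Depth was estimated from the steps of low FPKM values.

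From these values log2(FPKM + 1) was computed where the mean FPKM of a gene was 1 or more. This scale understates changes of low genes. Limma 3.58.1 in R 4.3.3 fitted 1 mean per group (lmFit, eBayes with trend, two-sided), with Benjamini-Hochberg adjustment over 12440 genes and called genes at an adjusted p under 0.05. The script was tested on simulated data. P-values measure the spread between 2 libraries per group, which may be partly technical. Of 24458 genes, 23657 matched RefSeq by symbol and 696 by synonym. GENCODE transcripts gave GC content and length, and RefSeq promoter windows (GRCm38.p6) the sequences, with a window for 18180 genes.

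Named genes are Cxxc5, the 15 largest called genes per direction with separate library pairs and no predicted-gene symbol, called list members, the 2 highest-FPKM members per list, and the 5 largest of opposite sign per direction. Further genes were named after their values were seen. The comparison, members and gene lists were chosen with earlier results of these data known. Alternatives were a pseudocount of 0.1, no filter, quantile normalization, all 12 libraries, library weights per group, a replicate block, leaving out each library, and, added after seeing the data, removal of GC content and length trends. The stem cell and ChIP-seq samples were not used here.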

Additional observations from a re-analysis of the deposited data

Results flagged for a closer look

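The interaction is itself a test of whether the change from day 3 to day 6 differs between genotypes, so every called gene is listed for a closer look; 220 genes were called by limma. Among longer transcripts named by the rule, the values on the log2(FPKM + 1) scale were -3.52 for Snhg14, -2.39 for Slc24a5, -1.84 for Tmem47 and -0.90 for Trp53inp1. On the positive side they were 2.58 for Ceacam9, 2.31 for Tpbpa, 2.22 for Prl7d1, 2.13 for Cabp1, 1.92 for Gjb2, 1.79 for Psd2, 1.55 for Lmo1, 1.21 for Vax1, 1.15 for Cdh4, 1.12 for Ptpn13, 0.58 for Rpl27a and 0.56 for Polr1d. Library pairs were separate in the 2 genotypes for all 220 called genes. That was also a condition for naming the largest, so it adds no support. Ceacam9, Tpbpa, Prl7d1, Gjb2, Psd2, Lmo1 and Vax1 passed the filter only through their knockout day 6 values.

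Short RNA genes gave the largest fitted values. Small nucleolar RNA genes stood at -9.27 for Snord88c, -8.23 for Snord8, -3.64 for Snora15, -3.54 for Snord7 and -3.03 for Snord16a. MicroRNA genes with a lower change stood at -5.82 for Mir297c, -5.44 for Mir15a, -4.84 for Mir1954, -4.37 for Mir432, -3.91 for Mir374b, -3.30 for Mir6338, -3.06 for Mir142b and -2.66 for Mir1b. On the positive side the values were 6.36 for Scarna17, 5.02 for Mir450b, 4.42 for Mir7034 and 3.89 for Mir6236, with 5.26 for the pseudogene Oaz1-ps. All of these genes but Snord16a are listed at 0 in at least 1 whole group, so their fitted values depend on the pseudocount and are no bound on a fold change. Mir432, for example, was at 108 and 274.5 FPKM in wild type at day 3 and at 0 in both knockout libraries at day 6, and Snora15 at 24.7 and 25.2 against 0 in the same libraries.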

How the results depend on the processing

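The 220 calls became 577 with all 12 embryoid body libraries in the fit (168 higher and 409 lower), 34 with GC content and length trends removed (chosen after seeing the data), and 32 to 1095 when 1 library was left out. They numbered 228 with a pseudocount of 0.1, 209 with no filter on low values, 303 with quantile normalization (61 and 242) and 198 with library weights per group. The 3621 wild type calls ran from 23 to 4734 without 1 library, lowest without wild type day 3 replicate 1 and at 26 without day 3 replicate 2. The 7074 knockout calls ran from 4037 to 7374. With a replicate block the interaction had 16 calls and the wild type change 1605. Deviations of same-numbered libraries correlated at 0.0066 between days in wild type and 0.075 in knockout, and at 0.086 and 0.244 between genotypes at days 3 and 6. As not all were over 0.1, the main fit did not pair the libraries by number. Low correlations cannot show that the libraries are unpaired, and the labels do not link numbers to lines. Of 91 called genes examined singly, 83 were called with a pseudocount of 0.1, 71 with no filter, 89 with quantile normalization, 81 with 12 libraries, 77 with group weights, 14 with the replicate block, 26 with the GC and length trends removed, and between 21 and 91 without 1 library. Of the 91, 1 changed direction: Ncapg went from -0.59 to 0.0525 with the trends removed. Over all 220 called genes 3 did so there. Quantile normalization and trend removal moved the median interaction of all genes to 0.015 and 0.011. Depth limits the low genes: a gene listed at 0 in 1 group can have had a few reads, and p-values rest on 2 libraries per group.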

Other observations

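Germ cell and Rhox genes all lay below 0 in the interaction, 12 of 12 tested, with a median of -0.45, 0 called by limma, and 0 higher and 2 lower at an unadjusted p under 0.05. Rhox6 and Rhox9, X-linked homeobox genes of germ cells and placenta and close paralogues, were already apart at day 3, Rhox6 at 3.19 and 2.35 FPKM in wild type and 19.8 and 32.5 in knockout. At day 6 Rhox6 stood at 2.66 and 0.35 in wild type and 11.7 and 11.7 in knockout, so the genotypes remained separate while the interaction was small (-0.31, SE 0.66, adjusted p = 0.803). In Tfap2c, which acts in germ cells and trophoblast, the FPKM was 11.1 and 15.1 FPKM in wild type and 28.6 and 35.2 in knockout at day 3, and 10.6 and 9.16 against 17.2 and 11.2 at day 6 (-0.78, SE 0.32, adjusted p = 0.228).

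Of 18 extraembryonic endoderm genes 13 were tested. Afp, Ttr, Apoa1, Amn and Hnf4a were too low, and Gata4 and Gata6 are on the lateral and cardiac mesoderm list too. All 13 lay above 0, with a median of 0.68, 0 called by limma, and 4 higher and 0 lower at an unadjusted p under 0.05. Col4a1, for a basement membrane collagen, reached 23.5 and 42.8 FPKM in wild type and 54.1 and 88.8 in knockout at day 6 (1.11, SE 0.48, adjusted p = 0.238), and Sparc, for a matrix glycoprotein, 53.3 and 64.4 against 76.4 and 108.9 (0.50, SE 0.24, adjusted p = 0.273). Apoe, the apolipoprotein gene, was 490 and 395 FPKM in wild type and 484 and 495 in knockout at day 3, and 226 and 282 against 538 and 740 at day 6 (1.17, SE 0.26, adjusted p = 0.0861). Definitive endoderm genes were split, with 6 of 10 above 0 and a median of 0.27. FGF and ERK feedback genes had a median of 0.10 over 17 members and Notch genes one of 0.19 over 12, near the value of all genes. Of 17 glycolysis and hypoxia genes 13 rose and 1 fell in each genotype, against 14.1% of all genes called higher in wild type and 28.6% in knockout, and their median interaction was 0.12.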
